A study of Mus musculus with 5 samples.

Results

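The cytosolic ribosome of a mouse cell is built from a small subunit, which reads the mRNA, and a large subunit, which joins the amino acids. Each subunit consists of ribosomal RNA and a fixed set of proteins present as single copies, except for the acidic stalk proteins. In any cell, macrophages included, the mRNAs of these proteins are among the most abundant transcripts, and they are known for being regulated mostly in translation, through a pyrimidine tract at their 5′ end. Ribosomal protein genes are also known for the many processed pseudogenes derived from them, so that reads of one gene can match several places in the genome.

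The set described here holds 81 genes of the 12311 rows that Cuffdiff tested. They are the rows with status OK whose single symbol follows the names of ribosomal proteins (Rpl, Rps or Rplp with a number and, for some, an ending such as a, x or l) or is Rpsa. Of these, 49 belong to the large and 32 to the small subunit by symbol, and 7 are paralogs or similar copies whose names end in l, l1 or al. Another 5 rows hold a matching symbol but did not qualify. Rpl30, Rpl13a and Rps21 share their rows with other symbols, and Rpl10l and Rpl3l were not tested by Cuffdiff.

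Macrophages came from tumors grown from 9609, a mouse MCA fibrosarcoma line. The labels give a MEK1-low group of 2 libraries, whose genotype is MEK1-low and whose treatment is exosomes marked MEK1-low (GFP), and a MEK1-hi group of 3 libraries with the genotype MEK1-hi and MEK1-hi exosomes. Strain, age, time and any host manipulation could not be read from the labels, nor whether libraries came from separate animals, so p-values measure only the spread between these libraries, which may be technical. The authors' deposited table gives 1 pooled FPKM (fragments per kilobase of transcript, scaled to the mapped fragments of the library) per group. No value per library, SD or depth can therefore be stated. All directions are MEK1-hi relative to MEK1-low. The test is the authors' own Cuffdiff test, and a gene is called at a q value (the p-value adjusted over all tested rows) of at most 0.05.

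Because the data cannot be read without knowing how alike these genes are to other genes, sequences of 3 parent and paralog pairs with coding parts of equal length are shown first. Each line gives the first 90 coding bases of the GENCODE M21 transcript, and capitals mark the bases at which the members of a pair differ.

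Rpl36a: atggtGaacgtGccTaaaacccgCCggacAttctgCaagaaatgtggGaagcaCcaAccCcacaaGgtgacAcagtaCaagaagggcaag

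Rpl36al: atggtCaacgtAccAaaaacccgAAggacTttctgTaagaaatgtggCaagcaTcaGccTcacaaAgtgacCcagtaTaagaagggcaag

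Rps27: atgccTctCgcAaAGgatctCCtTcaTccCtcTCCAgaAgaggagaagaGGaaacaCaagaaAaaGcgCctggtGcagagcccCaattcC

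Rps27l: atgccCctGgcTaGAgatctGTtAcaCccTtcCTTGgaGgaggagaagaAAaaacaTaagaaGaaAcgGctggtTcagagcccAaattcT

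Rpl39: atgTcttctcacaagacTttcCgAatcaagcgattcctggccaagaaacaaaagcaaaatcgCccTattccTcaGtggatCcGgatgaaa

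Rpl39l: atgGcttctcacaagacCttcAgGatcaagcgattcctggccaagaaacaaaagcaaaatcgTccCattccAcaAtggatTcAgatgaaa

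Over the whole coding part, Rpl36al was 87.7% identical to Rpl36a (39 of 318 bases differed), Rpl39l 85.0% to Rpl39 (23 of 153) and Rps27l 76.2% to Rps27 (60 of 252). Within the 90 bases shown, 14, 10 and 24 bases differed, in the same order. Pseudogenes can be closer. The 100 coding bases of Rpl21 from position 96 to 195, shown next, were found unaltered in transcripts of 20 other annotated genes.

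Rpl21: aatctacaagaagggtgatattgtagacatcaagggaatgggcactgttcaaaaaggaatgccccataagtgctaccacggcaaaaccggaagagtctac

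For a measure of this, every window of 100 bases (the read length in the labels) that touches the coding part of a gene was looked up in the GENCODE M21 transcripts of all genes that do not overlap it. Of the 81 genes, 79 had a coding model there. Rpl32l and Rps4l did not. The median share of windows with an exact copy elsewhere was 55.3%. It ranged from 0% in 7 genes, among them Rps3, Rpl32 and Rpl41, to 98.4% in Rps27. Rpl21 had the most other genes with a copy, 40, of which 39 are annotated as pseudogenes.

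The levels of the ribosomal protein genes spread far more within a group than between the groups. In the authors' deposited table, the mean FPKM of both groups ran from 0.488 for Rpl39l to 1529 for Rpl41. Below 10 FPKM lay 24 genes, between 10 and 200 lay 42, and 15 reached at least 200. Proteins that the ribosome holds in equal number were thus listed at very unequal transcript levels. In the small subunit, Rps9 had the highest mean FPKM (1458), and Rps13, Rps12 and Rps29 the lowest (0.589, 0.875 and 1.76). In the large subunit the highest were Rpl41, Rplp1 and Rpl8 (1529, 1289 and 1213), and the lowest were Rpl39l, Rpl27 and Rpl23a (0.488, 0.730 and 0.800). The order was nearly the same in both groups (Spearman's rho 0.991 over 81 genes, which share the same libraries).

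**Figure D1:**
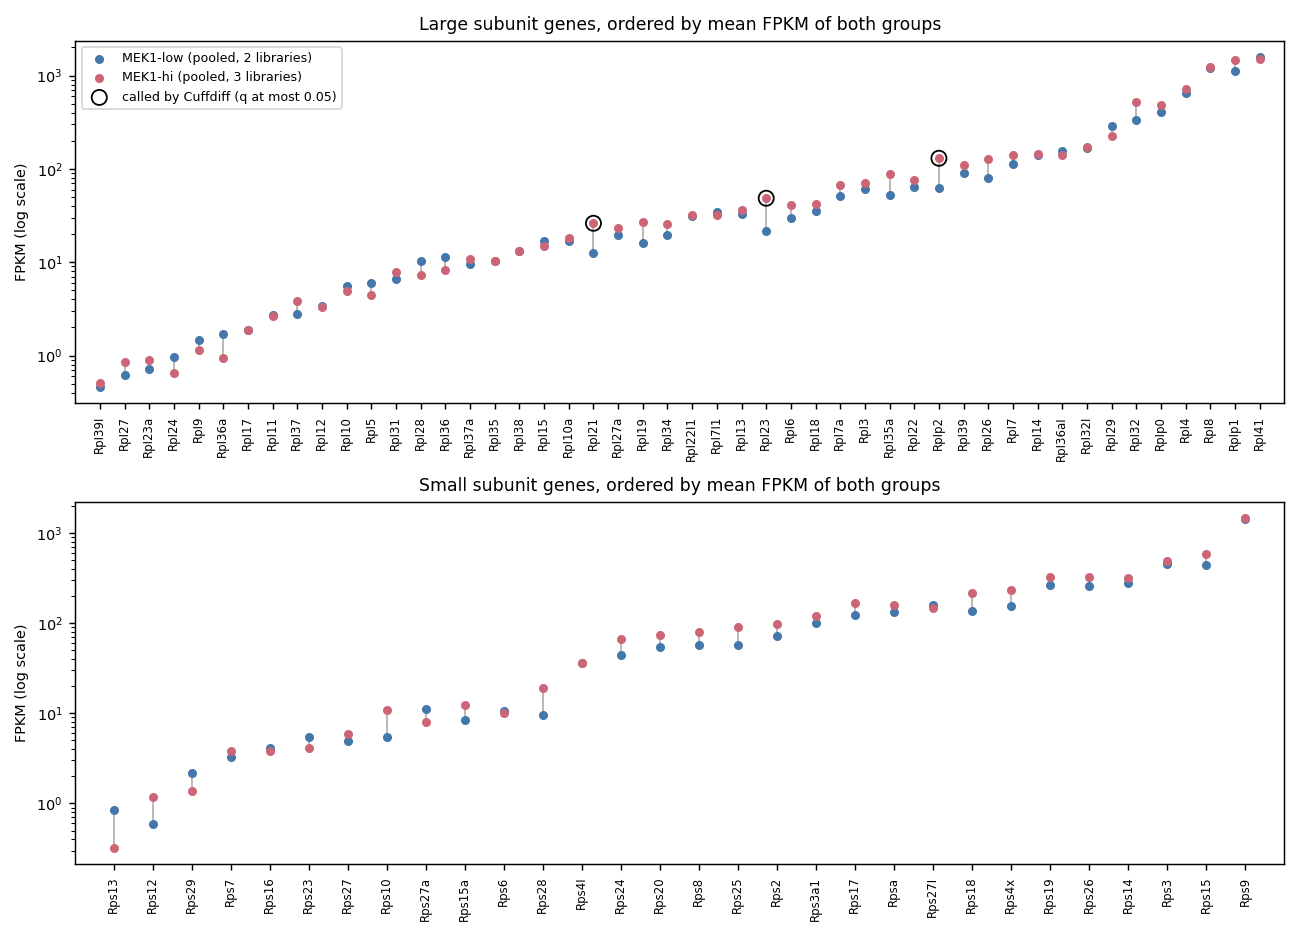
FPKM of the ribosomal protein genes (log axis; 3 genes are not drawn) in MEK1-low (blue) and MEK1-hi (red), 1 pooled value per group from the authors' deposited table, for the large (upper panel) and small subunit (lower panel), ordered by the mean of both groups; rings mark genes called by Cuffdiff. The means of both groups, which set the order, run from 0.488 to 1529 FPKM. The ringed genes, Rpl21, Rpl23 and Rplp2, lie in the middle of the large subunit's range.

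Levels moved with the share of copied windows. Over the 79 genes, mean FPKM and that share had a Spearman's rho of -0.67, and both measures share the transcript sequence. The 7 genes with no copied window had medians of 331 (MEK1-low) and 492 FPKM (MEK1-hi). The 35 genes with at least 60% copied windows had medians of 6.59 and 7.93. Among the latter were Rpl5 (92.8% copied), Rpl10 (91.6%), Rpl12 (90.1%) and Rps12 (88.9%), all below 10 FPKM. Exceptions existed on both sides. Rpl39l had no copied window and 0.488 FPKM, and Rps29 27.5% and 1.76 FPKM. Rpl29, with 62.0% copied windows, stood at 259 FPKM. How the authors' counting treated reads with several matches is not given in the sources used here, and its part in these levels was not tested.

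**Figure D2:**
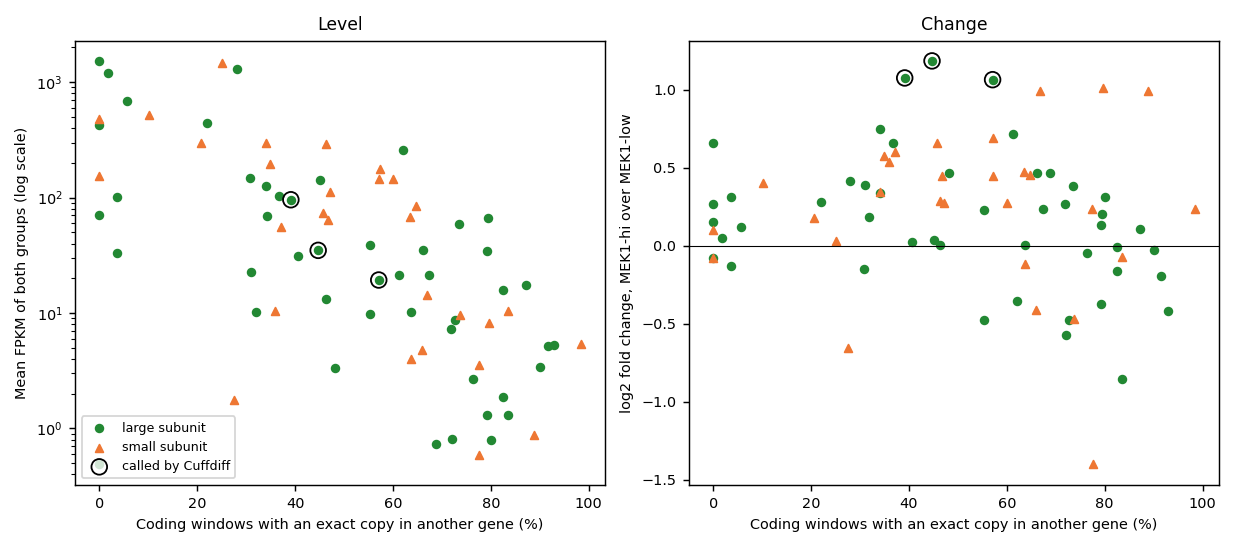
Share of coding windows of 100 bases with an exact copy in another gene (horizontal axis, %) against mean FPKM of both groups (left, log axis) and against the log2 fold change (right), for the ribosomal protein genes with a coding model (3 are not drawn); circles are large and triangles small subunit genes, rings mark genes called by Cuffdiff. Level falls as the share rises (rho -0.67 over 79 genes), and the ringed genes have shares between 39.1% and 57.1%.

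In the comparison of the groups, 4 ribosomal protein genes rose and none fell at a q of at most 0.05. The count was 1 (Rpl23) at a q of at most 0.01 and 0 with the Benjamini-Yekutieli adjustment. It was also 0 with p taken from the deposited statistic, so the calls described next rest on Cuffdiff's own p and q. Rpl23 has a p of 5e-05, as have Klrk1 (statistic 4.14) and Clec9a (4.16). No gene at that p passes the Benjamini-Yekutieli adjustment, so its 0 is not particular to ribosomal protein genes. At a p of 0.0001 q is already 0.0118 (Tpt1), so a q of 0.01 is met only at a lower p. The 4 called genes are among 81 genes and all belong to the large subunit. Over all 12311 tested rows, 1.32% were called in either direction, 0.999% higher and 0.325% lower. A looser threshold, an unadjusted p under 0.05, was met by 15 of the 81 genes, all higher (18.5%), beside 6.08% in either direction over all tested rows (3.5% higher and 2.58% lower). The log2 fold change was above 0 in 58 genes and below 0 in 23, with a median of 0.23. Over all tested rows the median was -0.023, with 46.2% above 0. With FPKM sums made equal, all log2 fold changes are 0.13 lower, and the medians become 0.019 for the large and 0.14 for the small subunit. The median of all tested rows is lowered by the same amount, so the distance of the subunits from it stays the same.

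Rpl23 rose the most. It encodes a protein of the interface between the subunits that is also known to bind Mdm2, the ubiquitin ligase of p53. In the authors' deposited table it went from 21.3 to 48.5 FPKM (mm10 chr11:97777526-97782439, statistic 2.58, q = 0.00676), a 2.27-fold change. Of its windows 44.7% were copied, in 1 other gene.

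Rplp2 encodes an acidic protein of the stalk, the flexible arm that recruits elongation factors. It went from 61.7 to 129.9 FPKM per the authors' deposited table (chr7:141447651-141451359, statistic 2.12, q = 0.0369), or 2.11-fold. Its partner Rplp1 had 1105 and 1474 FPKM there (q = 0.9998), and the stalk's anchor Rplp0 had 403 and 489 (q = 0.9998). Rpl12, at the stalk's base, had 3.41 and 3.34 FPKM (q = 0.9998) in the authors' deposited table. Of the 4 genes of the stalk and its base, 1 was called, with a median log2 fold change of 0.35. Of the windows of Rplp2 39.1% were copied, in 1 other gene.

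Rpl21 encodes a protein of the large subunit with no bacterial counterpart. In the authors' deposited table, it went from 12.5 to 26.1 FPKM (chr5:146832890-146837032, statistic 2.37, q = 0.0276), a 2.09-fold change. Of its windows 57.1% were copied. How reads were assigned between Rpl21 and its 40 partners is not known, and the part of this in the value was not tested.

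Below the called genes, 4 more large subunit genes had an unadjusted p under 0.05 without being called. Rpl35a had 52.0 and 87.4 FPKM per the authors' deposited table (q = 0.359). Rpl32 had 331 and 523 (q = 0.344), with no copied window, on a row whose locus spans 34187 bases. Rpl26 and Rpl19 belong to the rim of the tunnel through which the new protein chain leaves the ribosome. They had 79.9 and 126 FPKM (Rpl26, q = 0.444) and 16.3 and 26.6 FPKM (Rpl19, q = 0.685) in the authors' deposited table. Over the 7 genes of the rim, Cuffdiff called 0, 2 had an unadjusted p under 0.05, both higher, and the median log2 fold change was 0.31. The remaining members of the rim had log2 fold changes of 0.31 (Rpl39), 0.31 (Rpl23a), 0.27 (Rpl31), 0.0052 (Rpl35) and -0.0060 (Rpl17). Both genes of the 5S particle, which joins the 5S RNA to the large subunit and is known as a sensor of faulty ribosome assembly, lay below 0. Rpl5 had 5.99 and 4.48 FPKM and Rpl11 2.71 and 2.62 in the authors' deposited table (both q = 0.9998).

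Large subunit genes at the other end were Rpl36a, Rpl24 and Rpl28, with log2 fold changes of -0.86, -0.57 and -0.48. None was called. Rpl36a had 1.69 and 0.931 FPKM and Rpl24 0.974 and 0.656 in the authors' deposited table, so both rest on low values. Rpl28 had 10.2 and 7.33 there. Rpl29, at 290 and 227 FPKM per the authors' deposited table (unadjusted p = 0.154), had the lowest log2 fold change, -0.35, among large subunit genes of at least 200 FPKM. The most abundant ones besides Rplp1 had 1571 and 1487 FPKM (Rpl41) and 1192 and 1233 (Rpl8), as listed in the authors' deposited table.

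In the small subunit, Cuffdiff called 0 of 32 genes, and 7 had an unadjusted p under 0.05, all higher. The largest log2 fold changes were those of Rps10 (1.01), Rps12 (0.99) and Rps28 (0.99), which encode proteins of the head, the part that swivels as the mRNA moves. Rps10 had 5.44 and 11.0 FPKM (q = 0.740) and Rps28 9.66 and 19.2 (q = 0.634) in the authors' deposited table. Rps12 had 0.585 and 1.17 FPKM there, with an unadjusted p of 0.241. Fold changes of Rps10 and Rps28 were thus close to those of the called large subunit genes, with statistics of 1.33 each. Of the 14 head genes, Cuffdiff called 0, and 4 had an unadjusted p under 0.05, all higher. Of these 14, 10 lay above 0 and 4 below (median 0.42), the lowest being Rps29 (-0.65) and Rps27a (-0.47). The lowest small subunit p belonged to Rps18, also of the head, which had 135 and 218 FPKM (statistic 1.72, p = 0.0071, q = 0.265) in the authors' deposited table. Rps25, a head protein used by some viral RNAs to start translation, had 57.2 and 90.4 FPKM (q = 0.486) there.

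Of the 16 genes outside the head other than paralogs, 13 lay above 0 and 3 below, with a median of 0.25, and 3 had an unadjusted p under 0.05, all higher. Among these 3, Rps24 had 44.5 and 67.4 FPKM (q = 0.424), Rps4x, which lies on the X chromosome, 156 and 233 (q = 0.524), and Rps15a 8.44 and 12.2 (q = 0.712) in the authors' deposited table. Rpsa, which also serves as a laminin receptor, had 132 and 160 FPKM (q = 0.9998). Over the whole small subunit, the lowest log2 fold changes were -1.40 for Rps13, which lies outside the head, and those of the head genes Rps29 and Rps27a, none called. Rps13 had 0.855 and 0.324 FPKM per the authors' deposited table and Rps29 2.16 and 1.37. Rps27a, which encodes ubiquitin fused to a ribosomal protein, had 11.1 and 8.04 FPKM (q = 0.9998) in the authors' deposited table. Rps6, the phosphorylation target of S6 kinases, had 10.7 and 10.1 FPKM (q = 0.9998) there. Rps9, the most abundant small subunit gene, had 1442 and 1473 FPKM, a log2 fold change of 0.030, per the authors' deposited table.

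**Figure D3:**
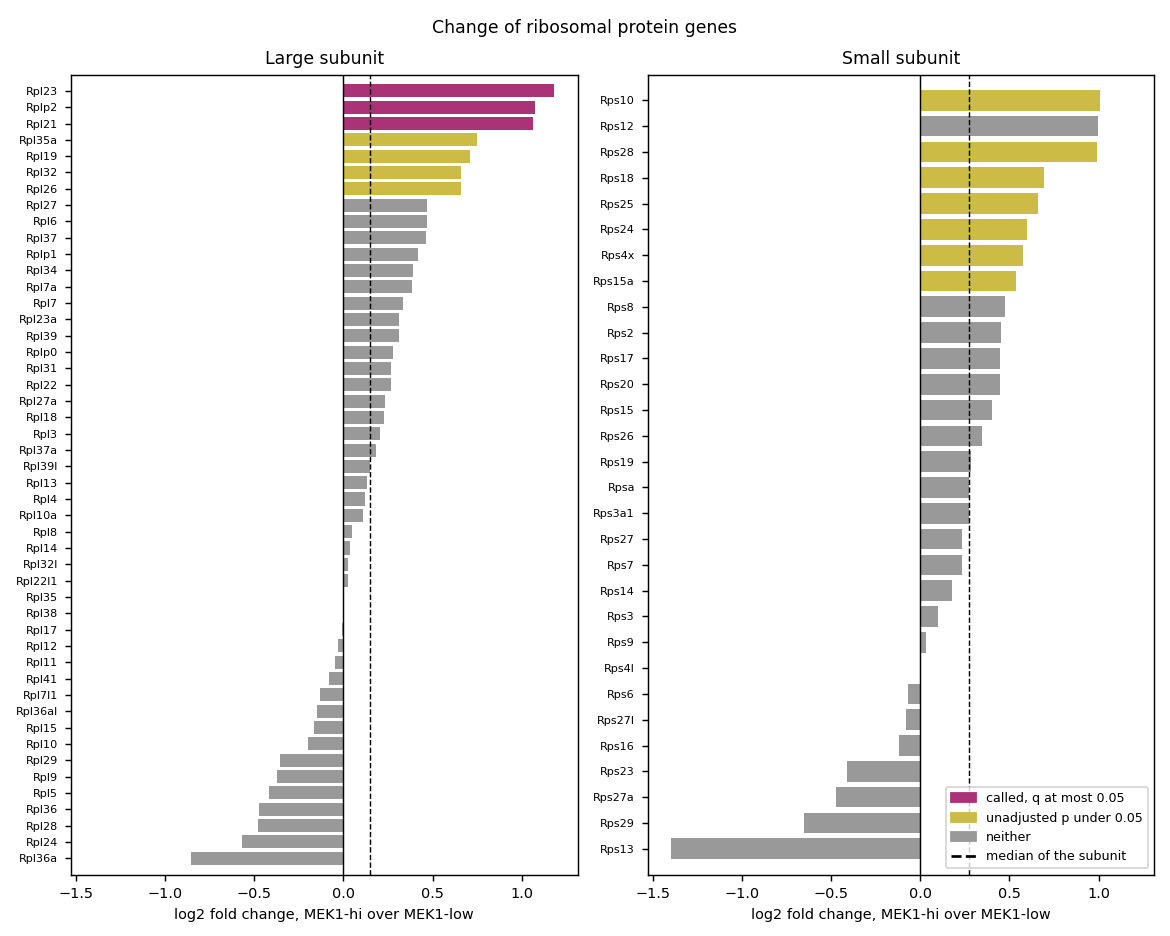
Log2 fold change of MEK1-hi over MEK1-low for the ribosomal protein genes (horizontal axis; 3 are not drawn), large subunit on the left and small subunit on the right; purple bars are called by Cuffdiff, yellow bars have an unadjusted p under 0.05 only, and dashed lines mark the median of all genes of a subunit. All purple and yellow bars lie above 0, and the medians are 0.15 and 0.27.

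Large and small subunit genes overlapped over most of their range. The median log2 fold change was 0.15 over the 49 large subunit genes, of which 34 were above 0, and 0.27 over the 32 small subunit genes, of which 24 were above 0. The medians differed by -0.12 (large minus small), and no test over genes was made. The difference was -0.063 without paralogs and -0.020 without genes of at least 60% copied windows, where the large subunit's median was 0.26. At a mean FPKM of at least 10 that median was 0.23 and the small subunit's 0.34. The sign of the difference depended on the summary. With FPKM summed over members, the log2 ratio was 0.18 for the large subunit (6998 to 7937 FPKM) and 0.16 for the small (6233 to 6971), a difference of 0.020. At an unadjusted p under 0.05, 8 of 49 large (16.3%) and 7 of 32 small subunit genes (21.9%) were higher. That the 4 called genes are all of the large subunit therefore does not show that the subunits differed.

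Proteins that also exist in bacterial ribosomes were compared with those that do not, leaving out the paralogs. In the large subunit the median log2 fold change was 0.11 over 17 genes with bacterial homologs and 0.27 over 27 without. In the small subunit it was 0.10 over 15 with and 0.45 over 15 without. Called genes numbered 1 of 17 (Rpl23) and 3 of 27 in the large subunit. In the small subunit Cuffdiff called 0 in both classes, with 2 and 5 genes at an unadjusted p under 0.05. These values are descriptions without a test.

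The called genes all lay at intermediate levels. Bands of level were chosen after the values were seen. Of the 42 genes between 10 and 200 FPKM, 37 lay above 0, 4 were called and 13 had an unadjusted p under 0.05, all higher (median 0.32). All tested rows of that band had a median of 0.0063, with 51.6% above 0, 89 of 5735 called and 3.99% higher at an unadjusted p under 0.05. Of the 15 genes of at least 200 FPKM, 12 lay above 0, Cuffdiff called 0, and 1, Rpl32, had an unadjusted p under 0.05 (median 0.12). All tested rows of that band had a median of 0.095, with 68.9% above 0, 14 of 341 called and 9.09% higher at an unadjusted p under 0.05, beside 6.67% of the ribosomal protein genes there. Of the 24 genes below 10 FPKM, 9 lay above 0 and 15 below, Cuffdiff called 0, and 1, Rps10, had an unadjusted p under 0.05 (median -0.083). All tested rows of that band had a median of -0.073, with 40.0% above 0 beside 37.5% of the ribosomal protein genes there, and 60 of 6235 called.

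The share of copied windows showed a like pattern, with a cut at 60% that was chosen after the data were seen. All 4 called genes and 11 of the 15 with an unadjusted p under 0.05 were among the 29 genes with 25 to 60% copied windows, whose median log2 fold change was 0.42. It was 0.10 over the 7 genes with no copied window, 0.15 over the 8 with less than 25% and 0.11 over the 35 with at least 60%. Among tested genes other than these, 261 had 25 to 60% copied windows, with a median of -0.0053, 2 called (both higher) and 16 higher at an unadjusted p under 0.05 (6.13%). Of the 133 with at least 60% copied windows, 4 were called, all higher, and 4.51% were higher at an unadjusted p under 0.05 (median -0.024). Of the 731 with less than 25%, 13 were called, 11 of them higher, and 4.38% were higher at an unadjusted p under 0.05 (median 0.029). The 10244 with none had 131 called, a median of -0.030 and 3.25% higher at an unadjusted p under 0.05. Whether read assignment has a part in the differences was not tested. Over the 79 genes the log2 fold change and the share of copied windows had a rho of -0.15, and log2 fold change and coding length one of -0.05.

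Of the 7 paralogs and similar copies, 0 passed Cuffdiff's q threshold and 0 its unadjusted p of 0.05. Their log2 fold changes lay between -0.15 and 0.15. The pairs whose sequences are shown above had very unequal levels. Rpl36al had 157 and 141 FPKM, against 1.69 and 0.931 for Rpl36a, whose windows were copied to 83.5%. Rps27l had 158 and 149 FPKM with no copied window, against 4.97 and 5.85 for Rps27, with 98.4%. For Rpl39 the order was the reverse, since it had 89.8 and 111 FPKM and Rpl39l, a copy known from testis, 0.463 and 0.513 in the authors' deposited table. Rpl22l1 had 31.1 and 31.7 FPKM beside 63.6 and 76.4 for Rpl22, and Rpl7l1 34.7 and 31.7 beside 112 and 141 for Rpl7. The rows of Rpl32l (167.9 and 171 FPKM) and Rps4l (36.1 and 36.2) cover loci of 132671 and 396937 bases. Loci over 20 kb were listed for 7 of the 81 genes. The longest, 672333 bases, was that of Rps15, whose 448 and 592 FPKM per the authors' deposited table came with a statistic of only 0.186.

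None of the 3 rows with several symbols was called. Rpl30 had 28.1 and 48.5 FPKM (p = 0.021, q = 0.522), Rpl13a 255 and 309 (q = 0.9998) and Rps21 591 and 578 (q = 0.9998) in the authors' deposited table. Fau and Rack1, whose symbols do not follow the pattern, were not called either. Fau encodes a protein that carries ribosomal protein S30. The row with its symbol lies at chr16:76403206-76403711 and stood at 1675 and 1620 FPKM per the authors' deposited table (q = 0.9998). Of the windows of Fau 81.2% were copied, in 1 other gene, a pseudogene. Whether this row measures Fau itself or a copy was not tested. Rack1, the scaffold on the head of the small subunit, stood at 1009 and 1023 FPKM per the authors' deposited table (q = 0.9998).

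Lists drawn up for other genes that make or use ribosomes held 1 called gene, Tpt1. Of 75 mitochondrial ribosomal protein genes, which serve the separate ribosome of that organelle, Cuffdiff called 0, and 0 reached an unadjusted p of 0.05 (median 0.031, range -0.27 to 0.54). Of 34 initiation factors Cuffdiff called 0, and 0 reached an unadjusted p of 0.05 (median -0.032). Pabpc1, the poly(A)-binding protein, had 269 and 274 FPKM and Eif3k, a subunit of initiation factor eIF3, 212 and 225 FPKM per the authors' deposited table. Of 10 genes listed with the elongation and termination factors 1 was called, Tpt1. It encodes a translationally controlled protein rather than such a factor. Its mRNA, like those of ribosomal proteins, starts with a pyrimidine tract. No other gene of that list was called. Tpt1 went from 20.4 to 45.0 FPKM (statistic 2.55, q = 0.0118) in the authors' deposited table, and 68.3% of its windows were copied, in 3 other genes. Eef1a1, the elongation factor that delivers aminoacyl-tRNA, had 1962 and 2143 FPKM, and Eef2, the translocase, 832 and 844 in the authors' deposited table (both q = 0.9998).

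Of 46 tested genes of ribosome assembly and rRNA processing, 36 lay below 0 and 10 above (median -0.12), with 0 called by Cuffdiff and 0 at an unadjusted p under 0.05. Ncl and Npm1, abundant nucleolar proteins, had 104 and 85.9 FPKM and 106 and 117 FPKM per the authors' deposited table. RNA polymerase I and its factors (18 tested, median -0.08) also had 0 called by Cuffdiff and 0 at an unadjusted p under 0.05. So did the list for control of ribosomal protein translation (17 tested, median -0.09), which includes the transcription factors Myc, Mycn and Max. In the last group Myc, a transcription factor that drives ribosome production, had 307 and 336 FPKM, and Rheb, the GTPase that activates mTORC1, 58.3 and 66.5, per the authors' deposited table. Polr2f and Polr1d, both polymerase subunits, had 79.7 and 73.7 FPKM and 70.7 and 79.3 FPKM there. Of 13 noncoding hosts of small nucleolar RNAs Cuffdiff called 0, and 0 reached an unadjusted p of 0.05 (median 0.049). Among these is Gas5, whose transcript also starts with a pyrimidine tract. It had 124 and 141 FPKM, and Snhg1 71.97 and 72.11, per the authors' deposited table.

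**Figure D4:**
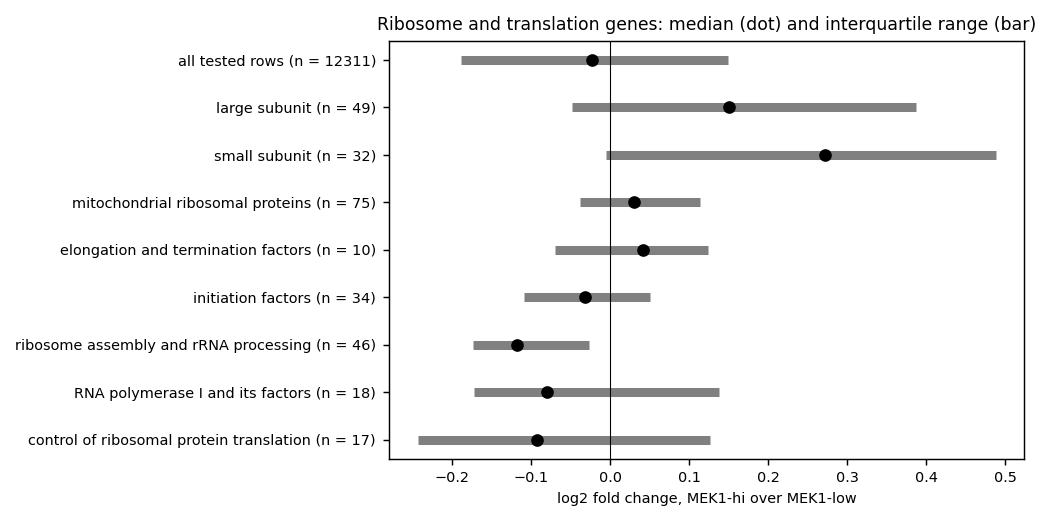
Median (dot) and interquartile range (bar) of the log2 fold change of MEK1-hi over MEK1-low (horizontal axis) for all tested rows and for lists of ribosome and translation genes, with the number of tested genes in brackets. The medians of both cytosolic subunits (0.15 and 0.27) lie to the right of the others drawn, which lie between -0.12 and 0.042.

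Start regions were available from RefSeq (GRCm38.p6) for 61 of the 81 genes, as windows of 300 bases with 250 before the start. Short motifs were searched on both strands. CCGGAAG, the core recognised by ETS factors, was in the windows of 41.0% of the 61 genes and 9.93% of all 27025 genes. TATAAA was in 13.1% and 15.7%. CTTTCC, a pyrimidine stretch, was in 50.8% and 29.3%, with 60.5% of large and 34.8% of small subunit genes. CTTTCC and CCGGAAG can share 2 bases where they adjoin. Shown next are 100 bases before and 20 after the annotated start for the called genes with an entry, Rpl23 and Rplp2, for Rps18, which had the lowest p of the small subunit, and for Rps9, the most abundant gene of that subunit. Capitals mark these motifs, and a window without capitals holds none of them.

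Rpl23 (chr11:97782420-97782539, minus strand): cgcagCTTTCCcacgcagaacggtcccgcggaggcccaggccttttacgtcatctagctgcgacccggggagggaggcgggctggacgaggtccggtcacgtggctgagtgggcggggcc

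Rplp2 (chr7:141447551-141447670, plus strand): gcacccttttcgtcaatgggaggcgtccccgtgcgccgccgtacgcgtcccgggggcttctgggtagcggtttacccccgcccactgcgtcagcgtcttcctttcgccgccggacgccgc

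Rps18 (chr17:33955646-33955765, minus strand): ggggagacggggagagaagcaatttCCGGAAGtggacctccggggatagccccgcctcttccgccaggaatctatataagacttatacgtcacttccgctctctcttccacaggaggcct

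Rps9 (chr7:3703941-3704060, plus strand): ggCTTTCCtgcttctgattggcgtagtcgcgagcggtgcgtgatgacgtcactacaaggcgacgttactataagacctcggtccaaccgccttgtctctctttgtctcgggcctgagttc

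These matches describe the sequence and say nothing of which factor binds. The called genes Rpl23 and Rplp2 held no motif of the list in common in the bases shown.

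Markers were read beside these differences. All 12 macrophage markers were present and tested, with a summed FPKM of 19477 in MEK1-low and 23471 in MEK1-hi. Of these markers 8 lay above 0 and 4 below, with 0 called by Cuffdiff (0 at an unadjusted p under 0.05). Fibroblast and fibrosarcoma markers were present and lower. All 11 found of 12 lay below 0, 2 were called, 8 were lower at an unadjusted p under 0.05, and their sum went from 2447 to 1476 FPKM. Markers of cycling cells lay below 0 in 7 of 8, with 0 called by Cuffdiff and 1 lower at an unadjusted p under 0.05 (sum 321 to 276 FPKM). The sums of NK cell markers (11.2 and 33.2 FPKM, 8 of 8 above 0, 1 called), dendritic cell markers (55.3 and 73.1, 7 of 8 above 0, 2 called), T cell markers (8.98 and 13.4, 5 of 7 found above 0), B cell markers (8.72 and 9.72, 5 of 7) and neutrophil markers (56.3 and 63.4, 4 of 8) were small, and 0 of the last 3 lists were called by Cuffdiff. Among tested markers, an unadjusted p under 0.05 was reached by 4 of 5 NK (all higher), 4 of 8 dendritic (3 higher, 1 lower), 1 of 7 T (higher), 0 of 1 B and 2 of 4 neutrophil markers (1 in each direction). Of the erythroid markers, 2 of 5 were found (2.11 and 1.27 FPKM). No marker found was at 0 in both groups. In bulk RNA, fewer cells of a type and less RNA per cell cannot be told apart, and the part of these markers in the ribosomal protein values was not tested. Map2k1, which encodes MEK1, had 38.4 and 41.5 FPKM in the macrophages (q = 0.9998) in the authors' deposited table.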

How the data were processed

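Stranded mRNA libraries of tumor macrophages, 2 MEK1-low and 3 MEK1-hi, were sequenced as 100-base paired reads, per the labels' protocols. The submitters' processing notes name mm10, TopHat, Cufflinks, Cuffdiff and FastQC 0.73, with no role given. The annotation, strand setting and handling of reads with several matches could not be read from these. The authors deposited 1 Cuffdiff table. It holds 1 pooled FPKM per group, a test statistic (a score deposited by the authors), and p-value and q-value columns as deposited. Of its 24982 rows, 12311 have status OK. Log2 fold changes were computed from the deposited FPKM with no pseudocount. FPKM are not counts and no values per library were analysed here, so no model was fitted and depth is unknown.

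The members and lists were chosen with earlier results of these data known. Genes were named by rule: called members and those at an unadjusted p under 0.05, the 3 extremes of change and of level in each subunit, the stalk, the 5S particle, the tunnel rim, the paralogs with parents, and from other lists the called genes or the 2 most abundant. Rps6, Rpsa, Rpl29, Rpl10, Rps15 and the genes named as examples of copied windows were chosen after their values were seen. A few genes that the rule names are not reported here and not drawn, but count in all totals. Calculations were tested on simulated data. Windows came from GENCODE M21 transcripts. Gene positions are those of the authors' table (mm10), counted from 1. Software was matplotlib 3.10.9, scipy 1.17.1, pandas 2.3.3, numpy 2.4.6 and Python 3.11.15.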

Additional observations from a re-analysis of the deposited data

How the results depend on the processing

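The count of 4 called ribosomal protein genes was 1 (Rpl23) at a q threshold of 0.01. It was 0 with the Benjamini-Yekutieli adjustment, which no gene at the p of Rpl23 passes. With p taken from the deposited statistic and a normal distribution the count was 0, beside 15 at Cuffdiff's unadjusted p under 0.05. It was 4 at a q threshold of 0.1 and with rows of several symbols. It was also 4 without paralogs and at a mean FPKM of at least 10. The same held in alternatives chosen after seeing the data, without loci over 20 kb and without genes of at least 60% copied windows. Filters that leave out members could not change this count, since q was not recomputed and they remove none of the called genes. Equal FPKM sums gave medians of 0.019 (large) and 0.14 (small), with the median of all tested rows lowered by the same amount. Ratios of summed FPKM gave 0.16 for the small subunit and 0.020 for large minus small. Without genes of at least 60% copied windows the large median was 0.26 and the difference -0.020. The difference was -0.063 without paralogs. The other medians and differences moved by less than 0.1, the limit used here. Causes were not tested. Leaving out each library could not be run, since the table holds pooled values. No paired analysis was possible because the columns carry no replicate numbers.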
